A study of Homo sapiens with 3 samples.

Results

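The 9 genes CNTNAP2, CNTNAP4, CNTNAP5, NRXN3, NLGN1, CNTN3, CNTN4, CNTN5 and CNTN6 encode adhesion molecules of the neurexin family and their partners at synapses and axons. They were chosen by name out of 19970 protein-coding genes of the reference, and peaks of histone H2A acetylated at lysine 130 were counted over each gene span (hg38). ChIP-seq, in which an antibody pulls down chromatin and the recovered DNA is sequenced, was run on UM-UC-3, a human bladder cancer cell line (labelled UMUC3). The smoke group was 1 library of cells kept in cigarette smoke media (10% for 3 days), and the air group was 1 library of air-exposed cells. An input sample of the same line was not used here. The label of 3 days in smoke media also stands on the air sample, so the groups rest on the treatment label. Both groups share the cell line and the antibody, and labels name no transgene or knockout. Peak lists carry no expression values, so the labelled cell type could not be set against marker levels.

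Neurexins are presynaptic membrane proteins that reach across the synaptic cleft to neuroligins and other partners. NRXN3 is one of the neurexin genes, and like the others it is known for long alpha forms and short beta forms made from separate promoters. NLGN1 encodes a neuroligin of excitatory synapses. The CNTNAP genes encode neurexin-like proteins that pair with contactins: the CNTNAP2 product gathers potassium channels beside the nodes of myelinated axons, and the CNTNAP4 product acts at synapses of interneurons. Contactins, encoded by CNTN3 to CNTN6 here, are immunoglobulin-domain proteins held on the membrane by a lipid anchor. All of these genes are best known in neurons and are not markers of urothelium.

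The smoke list held 23975 peaks and the air list 27010, with median widths of 225 and 277 bp. Read depth is unknown, since a peak list carries no totals. Each group is 1 library, so differences between smoke and air below rest on single libraries, without a p-value. Intervals are 95% intervals, exact Poisson for counts and densities and Wilson for shares, and they cover counting error only. The peak counts and pairs below are what the genes were brought together to describe, so they are given as a description.

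The annotated starts that lay closest to a peak are shown first. Of the 13 starts that RefSeq places in these 9 genes (GRCh38.p14), 3 had a peak within 1 kb: the start of CNTN6, the start of CNTNAP5 and an internal start of CNTN4. The internal start of NRXN3 that opens its short 3′ part is shown with them, because the air peaks of NRXN3 lay mostly beyond it. Each line gives the 250 bases before the start, 5′ to 3′ on the plus strand, with every CG pair in capitals.

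CNTN6, chr3:1092774-1093023: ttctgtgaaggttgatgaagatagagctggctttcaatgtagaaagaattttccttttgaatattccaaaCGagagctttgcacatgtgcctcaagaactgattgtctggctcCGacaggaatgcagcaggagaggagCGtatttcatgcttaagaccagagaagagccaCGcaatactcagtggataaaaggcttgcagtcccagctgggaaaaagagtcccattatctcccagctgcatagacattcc

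CNTNAP5, chr2:124025037-124025286: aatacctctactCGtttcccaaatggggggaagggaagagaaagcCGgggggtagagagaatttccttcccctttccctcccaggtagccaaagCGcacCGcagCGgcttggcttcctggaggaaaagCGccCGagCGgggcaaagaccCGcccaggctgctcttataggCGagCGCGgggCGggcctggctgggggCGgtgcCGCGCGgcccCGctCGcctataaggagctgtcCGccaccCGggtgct

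CNTN4 internal start, chr3:2891970-2892219: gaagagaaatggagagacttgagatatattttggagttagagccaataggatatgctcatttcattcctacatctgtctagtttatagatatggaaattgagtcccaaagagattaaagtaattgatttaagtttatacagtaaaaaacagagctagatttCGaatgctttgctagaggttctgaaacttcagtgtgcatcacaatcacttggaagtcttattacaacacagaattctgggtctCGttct

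NRXN3 internal start, chr14:79279130-79279379: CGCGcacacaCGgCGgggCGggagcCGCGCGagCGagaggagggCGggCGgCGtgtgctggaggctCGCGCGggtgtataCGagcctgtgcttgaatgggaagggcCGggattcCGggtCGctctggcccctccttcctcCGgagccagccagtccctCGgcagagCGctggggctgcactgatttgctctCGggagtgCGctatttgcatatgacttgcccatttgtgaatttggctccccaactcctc

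These 4 sequences differ in CG content. The motif searched was CG, which reads the same on both strands. CNTN6 held 4 CG pairs and the CNTN4 internal start 2, while CNTNAP5 held 21 and the NRXN3 internal start 24. Over 22131 annotated starts of protein-coding genes the median was 16, and 81.7% held at least 4, 91.6% at least 2, 38.7% at least 21 and 30.2% at least 24. The start of CNTN4 at the beginning of its span was the richest of the members with 40 pairs, and its nearest peaks were 15.6 kb upstream in air and 72.8 kb downstream in smoke. The starts nearest to a peak thus included both CG-poor and CG-rich ones.

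CNTN6 was the member with peaks of both libraries at its start. The gene, whose product is a contactin of axons and a ligand of Notch in glial precursors, lies on chromosome 3 from 1093024 to 1404217 on the plus strand. A smoke peak ran from 1093174 to 1093358, starting 150 bp downstream of the annotated start, at a fold of 5.37 (−log10 q 2.65). The fold is the authors' enrichment over background. An air peak ran from 1093124 to 1093718, starting 100 bp downstream, at a fold of 4.06 (−log10 q 1.5). The smoke peak lay wholly inside the air peak, and their summits were 21 bp apart. It was the strongest of the 9 smoke peaks of CNTN6 by −log10 q. A further air peak lay 383 bp before the start, from 1092442 to 1092641 (fold 3.48). The CNTN6 sequence printed above lies between that air peak and the shared pair and overlaps neither. Among 15811 protein-coding genes with an annotated start, 1.46% had a smoke peak within 1 kb of one, 1.76% an air peak and 0.0632% both. Overlapping smoke and air peaks within 1 kb of a start were found at 0.019% of them, 3 genes, of which CNTN6 was one. The others were BOD1L1 and TAS2R7, named after their values were seen.

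The other peaks near starts belonged to 1 library each. At CNTNAP5, a neurexin-like gene of the nervous system, a smoke peak from 124025780 to 124025929 on chromosome 2 began 493 bp downstream of the start (fold 3.76, −log10 q 1.24). The nearest air peak was 49.3 kb downstream. At the internal start of CNTN4, 793 kb into the gene, an air peak from 2893206 to 2893438 on chromosome 3 began 986 bp downstream (fold 4.06). There the nearest smoke peak was 38.5 kb upstream and was the strongest peak of all members, at a fold of 6.24 (−log10 q 3.92). CNTNAP2, CNTNAP4, NRXN3, NLGN1, CNTN3 and CNTN5 had no peak within 1 kb of an annotated start, and no member had one within 1 kb of its 3′ end.

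Together the 9 genes span 9.04 Mb and held 132 smoke peaks (110 to 157) and 151 air peaks (128 to 177). Smoke peaks made up 46.6% of the 283 (40.9 to 52.5), against 47.0% of all peaks in both lists. In peaks per Mb of gene, the members had 14.6 in smoke (12.2 to 17.3) and 16.7 in air (14.1 to 19.6). The 314 protein-coding genes longer than 500 kb together had 9.79 and 11.2. The members were chosen with earlier results of these data known, so this difference is only a description. Peaks of both libraries were present in 8 of the 9 genes, and CNTNAP4 had none in either. Among 1396 protein-coding genes over 200 kb, 80.3% held both kinds, 86.2% a smoke peak, 89.3% an air peak and 4.8% neither. Over 500 kb these shares were 95.9%, 96.8%, 98.7% and 0.318%, so 8 of 9 is near what genes of this length show. CNTNAP4 is the shortest member at 283 kb (chromosome 16, 76277401 to 76560757). Measured from its start, the nearest peaks were 24.2 kb upstream in air and 339 kb downstream in smoke. That smoke peak began at 76616056, past the 3′ end, so most of its distance is the gene itself. Distances from the 3′ end were not measured.

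**Figure D1:**
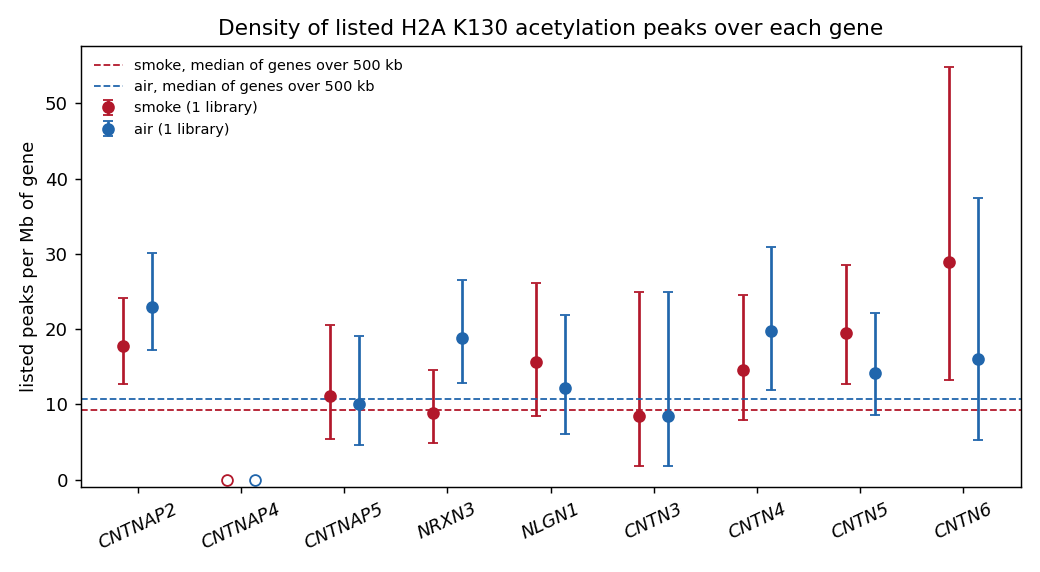
Listed peaks per Mb of gene (vertical axis) for each of the 9 genes, smoke in red and air in blue, 1 library each; bars are exact Poisson 95% intervals, open circles mark 0 peaks, and dashed lines are the medians of protein-coding genes over 500 kb (9.33 smoke, 10.8 air). NRXN3 is at 8.83 in smoke and 18.8 in air, and CNTN6 has the highest smoke value at 28.9.

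Among the neurexin-like genes, CNTNAP2 held the most peaks of all members. It spans 2304 kb on chromosome 7 (146116801 to 148420998) and had 41 smoke and 53 air peaks, or 17.8 (12.8 to 24.1) and 23 (17.2 to 30.1) per Mb. By density it ranked 30 in smoke and 14 in air of the 314 long genes. The flanks were sparser on one side: the 1 Mb before its start held 15 smoke and 16 air peaks, and the 1 Mb after its end held 4 and 6. CNTNAP5 (chromosome 2, 124025287 to 124921219) had 10 smoke and 9 air peaks, 11.2 and 10.0 per Mb, and ranked 109 and 165. The 3 CNTNAP genes therefore ran from 0 to 41 smoke and from 0 to 53 air peaks.

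NRXN3 was the member in which air peaks outnumbered smoke peaks most. It spans 1698 kb on chromosome 14 (78170373 to 79868291) and had 15 smoke and 32 air peaks, 8.83 (4.94 to 14.6) and 18.8 (12.9 to 26.6) per Mb. The air count was 2.13 times the smoke count, or 1.89 times after each count was scaled to the length of its list. Smoke peaks were 31.9% of its total (20.4 to 46.2). NRXN3 ranked 168 in smoke and 40 in air of 314 long genes. An air count at least 1.5 times the smoke count was found in 31.3% of 313 long genes with a peak and in 39.5% of those over 200 kb. An air excess of 1.5-fold or more is therefore common. How many long genes reach the 2.13-fold of NRXN3 was not counted, and that share can only be equal or smaller. NLGN1, the neuroligin gene (chromosome 3, 173395952 to 174294372), had 14 smoke and 11 air peaks, 15.6 (8.52 to 26.1) and 12.2 (6.11 to 21.9) per Mb.

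The contactin genes differed in the direction of their smoke and air counts. CNTN5 (chromosome 11, 99020949 to 100358885), known from auditory and retinal circuits, had 26 smoke and 19 air peaks, 19.4 (12.7 to 28.5) and 14.2 (8.55 to 22.2) per Mb, and ranked 17 in smoke and 96 in air. CNTN4 (chromosome 3, 2098866 to 3057959), whose product binds the amyloid precursor protein, had 14 smoke and 19 air peaks, 14.6 (7.98 to 24.5) and 19.8 (11.9 to 30.9) per Mb. CNTN6 had 9 smoke and 5 air peaks in 311 kb, 28.9 (13.2 to 54.9) and 16.1 (5.22 to 37.5) per Mb. CNTN3 (chromosome 3, 74262568 to 74614659, minus strand) had 3 of each, 8.52 per Mb.

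Of the 9 members, CNTN6 was the only one with a smoke count at least 1.5 times its air count. This was so for 27.1% of 1329 protein-coding genes over 200 kb with a peak, and for 15.3% of those over 500 kb. At a −log10 q of at least 1.3 CNTN6 had 5 smoke and 4 air peaks, and at 2 or more it had 2 of each, so its count no longer passed 1.5-fold. NRXN3 had 5 smoke and 17 air peaks at 1.3, and 3 and 11 at 2. At those thresholds an air count at least 1.5 times the smoke count was found in 58.6% and 57.2% of long genes with a peak, where the whole lists held 10637 smoke and 16307 air peaks and 4144 and 6757. Members with more smoke than air peaks in the full lists turned at some thresholds. CNTNAP5 had 2 smoke and 5 air peaks at 1.3, NLGN1 1 and 2 at 2, and CNTN5 3 and 5 at 2. CNTN4, CNTN5 and CNTN6 had Wilson intervals for the smoke share that included the share of the whole lists, and so did CNTNAP2, CNTNAP5, NLGN1 and CNTN3. The interval of NRXN3 ended at 46.2%, just under the 47.0% of the lists.

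In order of smoke density, CNTN6 came first, followed by CNTN5, CNTNAP2, NLGN1, CNTN4, CNTNAP5, NRXN3, CNTN3 and CNTNAP4. In air the order was CNTNAP2, CNTN4, NRXN3, CNTN6, CNTN5, NLGN1, CNTNAP5, CNTN3 and CNTNAP4. Each gene's Poisson interval overlapped that of its neighbour in both orders among the 8 genes with peaks. Of the 6 members over 500 kb, 5 exceeded the median density of long genes in smoke (9.33) and 5 in air (10.8). Above the upper quartile (13.4 and 15.5) were 4 in smoke and 3 in air. The exceptions at the median were NRXN3 in smoke and CNTNAP5 in air. The members were chosen with earlier results of these data known, so their standing among long genes is only a description.

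**Figure D2:**
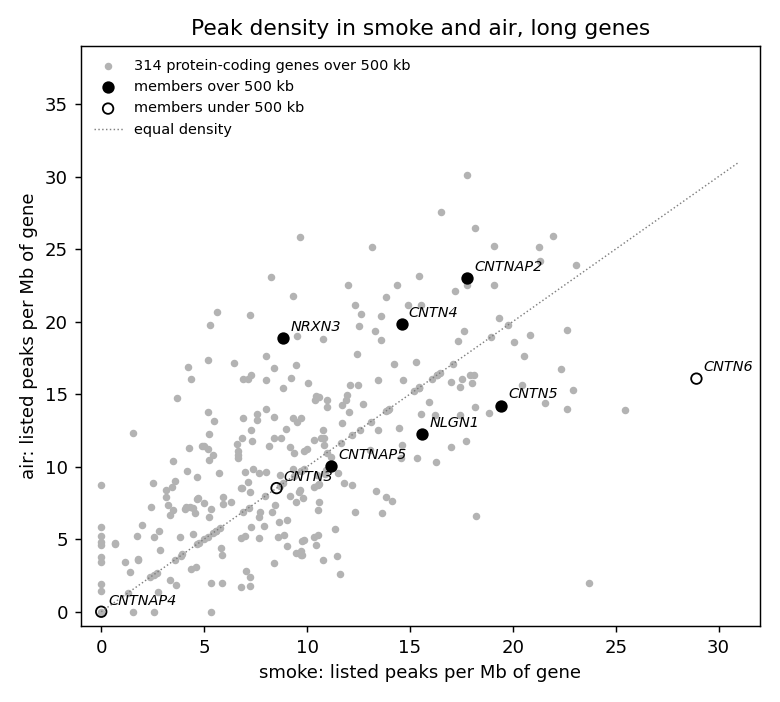
Peaks per Mb in smoke (horizontal axis) and in air (vertical axis) for 314 protein-coding genes over 500 kb (grey) and the members (black, open where the gene is under 500 kb); the dotted line marks equal density. NRXN3 lies above the line at 8.83 and 18.8, CNTN6 below it at 28.9 and 16.1, and CNTNAP4 at 0 and 0.

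Genes most like a member were taken as those over 500 kb nearest in both densities, over the 2 libraries. For NRXN3 these were SBF2 (9.50 smoke and 19.0 air peaks per Mb), SCHIP1 (8.01 and 17.6) and KHDRBS2 (10.8 and 18.8). For CNTNAP2 they were CNBD1 (17.8 and 23.1), DPYD (17.8 and 22.5) and the glutamate receptor gene GRM8 (17.2 and 22.1). For CNTN5 they were TRHDE (18.9 and 13.7), ASTN2 (18.1 and 14.1) and PTPRD (20.4 and 15.7). For CNTN6 the nearest of these long genes, VPS13B (25.5 and 13.9), was already 4.10 peaks per Mb away. CNTN6 itself is only 311 kb long and had 9 smoke and 5 air peaks, and genes nearer its length were not searched.

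Position along the gene was read in 5 equal parts, from start to end in the direction of transcription, by peak summit. An even spread would place 20% in each. Smoke peaks of the members numbered 25, 31, 27, 23 and 26 of 132, with 19.7% (13.8 to 27.3) in the part at the 3′ end. Air peaks were 29, 29, 24 and 26 in the first 4 parts and 43 of 151 in the part at the 3′ end, 28.5% (21.9 to 36.1). With 3 parts the 3′ share in air was 39.1% (31.7 to 47.0), and with 10 parts 11.9% (7.67 to 18.1), intervals that include the even shares of 33.3% and 10%. Among peaks of −log10 q 1.3 or more the 3′ part of 5 held 30.4% of smoke (19.9 to 43.3) and 29.6% of air peaks (20.8 to 40.3), each share inside the other interval. At 2 or more it held 5 of 24 smoke peaks, 20.8% (9.24 to 40.5), and 13 of 44 air peaks, 29.5% (18.2 to 44.2). Over 262 protein-coding genes longer than 500 kb with a listed strand, the 3′ part held 19.9% of air and 19.3% of smoke peaks of the full lists. At −log10 q 1.3 or more it held 20.2% of air and 19.5% of smoke peaks, and at 2 or more 20.8% and 18.5%. In the full air list without NRXN3, the share in the 3′ part of the members was 23.5% (16.8 to 31.9), an interval that includes 20%.

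NRXN3 contributed 15 of the 43. Its air peaks fell 2, 7, 1, 7 and 15 across the 5 parts, and its smoke peaks 4, 1, 4, 3 and 3. The 3′ part covers 340 kb and thus had 44.2 air peaks per Mb (24.7 to 72.9) and 8.83 smoke peaks per Mb (1.82 to 25.8). A rank of long genes by the share in the 3′ part was added after these peaks were seen, so it only describes them. Among the 46 long genes with at least 15 air peaks, NRXN3 had the highest share in the 3′ part, 46.9%, against a median of 17.2%. Its smoke share there was 20%, and 12 of 31 genes with at least 15 smoke peaks, itself included, reached that. Beyond the gene's end the contrast did not continue: the next 1 Mb held 19 smoke and 14 air peaks.

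**Figure D3:**
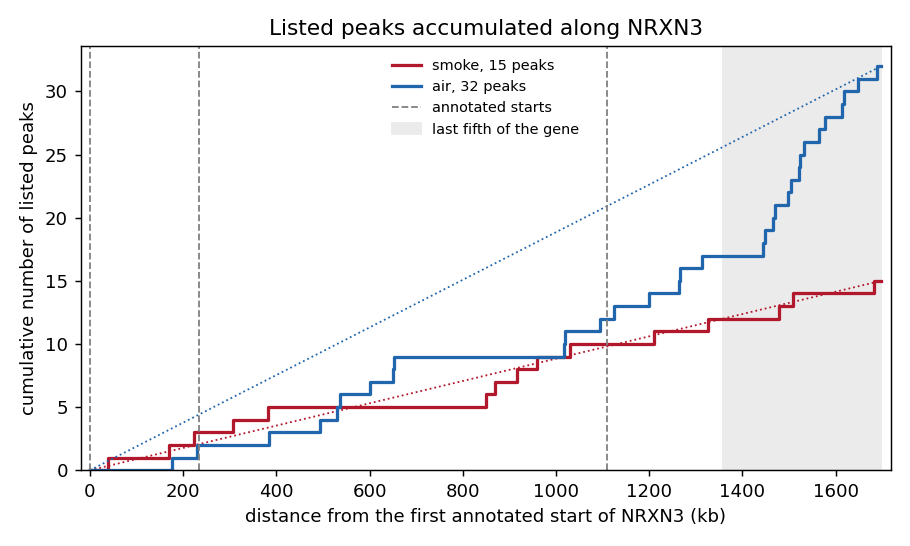
Cumulative number of listed peaks (vertical axis) against distance in kb from the first annotated start of NRXN3 (horizontal axis); red is smoke with 15 peaks and blue is air with 32, dotted lines show an even spread, dashed lines the annotated starts, and grey the 3′ part of 340 kb. The air line climbs by 15 in the grey part and the smoke line by 3.

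The annotated starts of NRXN3 divide the gene at 233 and 1109 kb. Before the internal start at 233 kb lay 3 smoke and 2 air peaks. Between the internal starts lay 7 smoke and 10 air peaks, 7.99 (3.21 to 16.5) and 11.4 (5.48 to 21.0) per Mb. After the internal start at 1109 kb, whose upstream sequence is printed above with 24 CG pairs, lay 5 smoke and 20 air peaks, 8.49 (2.76 to 19.8) and 34 (20.7 to 52.4) per Mb. The air peak nearest to that start was 13.5 kb upstream of it and the nearest smoke peak 79.7 kb upstream, so the air peaks of this segment did not lie at the start itself. The strongest NRXN3 peak was in air, from 79734079 to 79734421, 1564 kb into the gene, at a fold of 5.80 (−log10 q 3.10). In smoke 3 peaks tied for the strongest at a −log10 q of 2.11, each with a fold of 4.84. The antisense genes NRXN3-AS1, NRXN3-AS2 and NRXN3-AS3 lie within the span, and peaks carry no strand, so a peak there cannot be assigned to one of them.

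In 3 further genes the air peaks were also most numerous in the 3′ part, NLGN1 with 5 of 11, CNTN4 with 8 of 19 and CNTNAP5 with 3 of 9. Smoke peaks there were 3 of 14 in NLGN1, 3 of 14 in CNTN4 and 2 of 10 in CNTNAP5. Intervals for these air shares were wide, 21.3 to 72.0% for NLGN1, 23.1 to 63.7% for CNTN4 and 12.1 to 64.6% for CNTNAP5. CNTNAP2 went the other way, with 8 of 53 air peaks in the 3′ part and 14 in the middle part. In CNTN5 the 5′ part held the most air peaks, 7 of 19, and in CNTN6 3 of 5. CNTN3 had its 3 smoke peaks at 176, 262 and 342 kb from the start and its air peaks at 15.6, 63.5 and 180 kb. A higher count in the 3′ part was thus seen in some members in air and not in others.

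**Figure D4:**
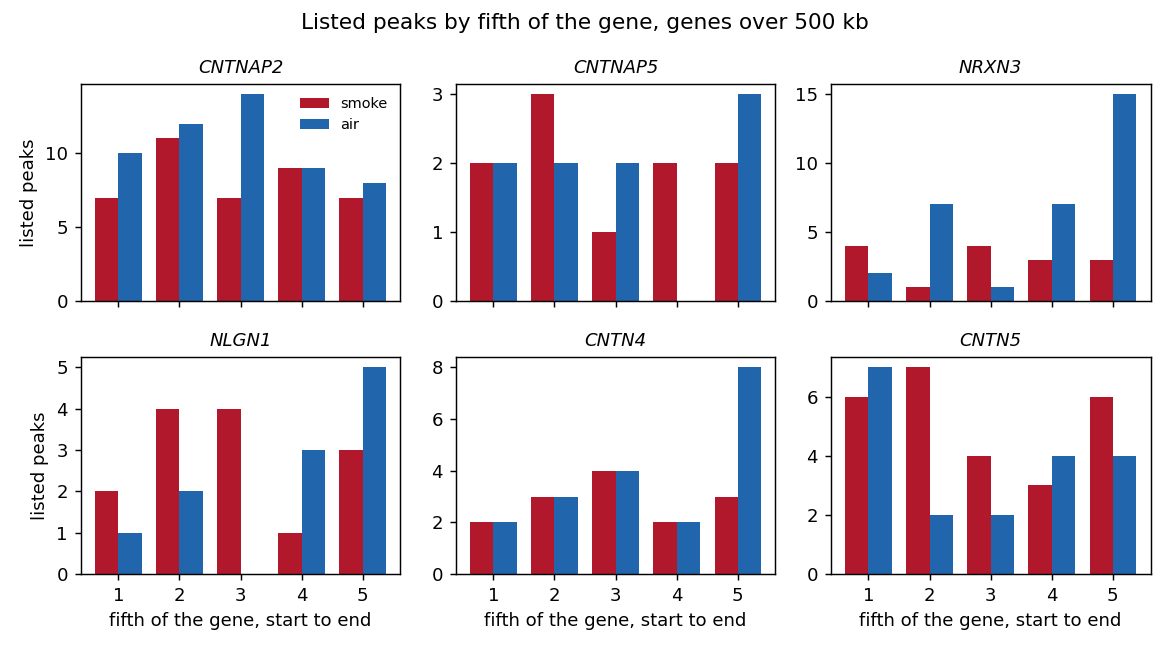
Number of listed peaks (vertical axes, a separate scale per panel) in each of 5 equal parts from start to end (horizontal axes) for the 6 members over 500 kb, smoke red and air blue. The 3′ part of NRXN3 holds 3 smoke and 15 air peaks, and CNTNAP2 has its highest air count, 14, in the middle part.

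Overlap between smoke and air was small in these genes, as in the lists. Of 132 smoke and 151 air peaks, 4 of each overlapped by at least 1 bp, 3.03% of the smoke peaks (1.18 to 7.53) and 2.65% of the air peaks (1.03 to 6.61). The whole lists gave 1.58% and 1.41%, inside those intervals. CNTNAP5 held 2 of the pairs, CNTN5 1 and CNTN6 1. At least 1 such pair was present in 10.5% of protein-coding genes over 500 kb and in 4.44% of those over 200 kb.

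CNTNAP5 had its pairs at 251 and 731 kb from the start. The first pair was a smoke peak at 124276385 to 124276550 (fold 3.76) and an air peak at 124275935 to 124276472 (fold 4.64), sharing 88 bp. In the other, a smoke peak at 124756369 to 124756625 (fold 3.34) and an air peak at 124756535 to 124756950 (fold 4.03) shared 91 bp. A further CNTNAP5 pair at 476 kb missed overlap by 76 bp. The CNTN5 pair, 1105 kb into the gene, had a smoke peak at 100125149 to 100125682 (fold 3.22) that wholly contained an air peak at 100125289 to 100125599 (fold 3.15). All of these but the air peak of the first CNTNAP5 pair had a −log10 q under 2, and the CNTN6 pair at the gene start was the one with the closest summits.

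CNTNAP2 had no overlapping pair among its 94 peaks. It had 3 pairs within 1 kb, with gaps of 498, 902 and 907 bp, and 10 within 5 kb. NRXN3 had 1 pair within 1 kb (454 bp) and 2 within 5 kb. NLGN1, CNTN3 and CNTN4 had none within 1 kb. In all 9 genes 6.82% of smoke peaks had an air peak within 1 kb (3.63 to 12.5) and 39.4% within 10 kb (31.5 to 47.9). Over protein-coding genes longer than 500 kb these shares were 5.07% and 27.6%. The members also had more peaks per Mb than those genes, 14.6 against 9.79 in smoke and 16.7 against 11.2 in air, and the part of density in these shares was not tested.

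**Figure D5:**
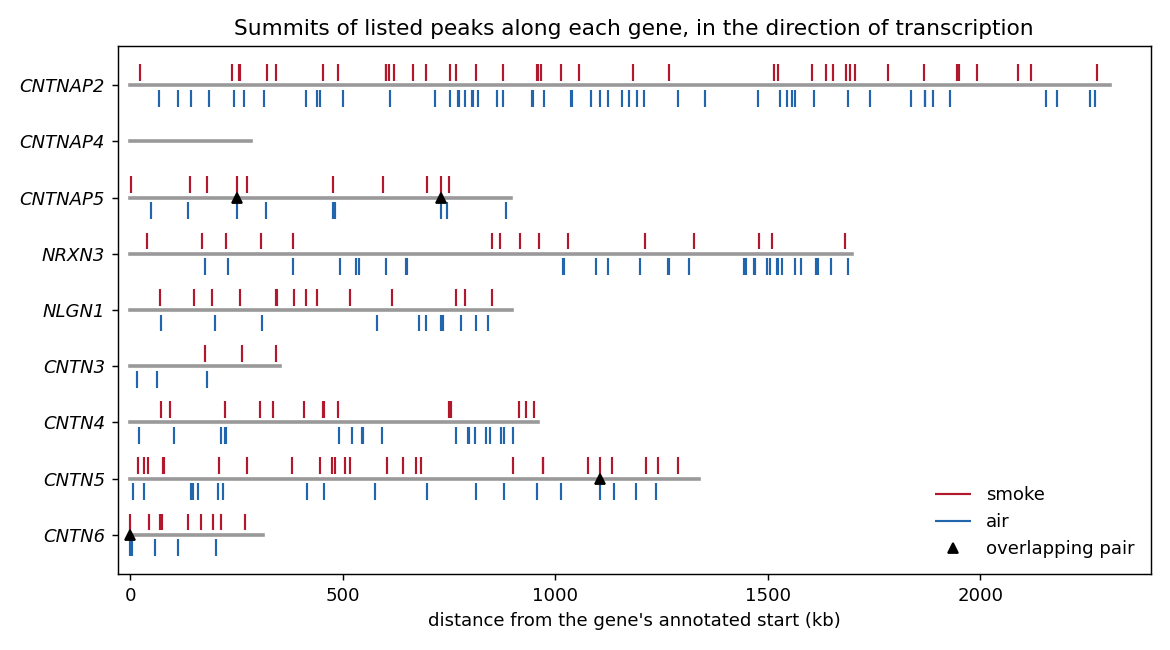
Summits of listed peaks along each of the 9 genes (horizontal axis, kb from the annotated start in the direction of transcription), smoke as red ticks above the grey gene line and air as blue ticks below it; black triangles mark the 4 overlapping pairs. CNTNAP4 has no tick, CNTN6 has its triangle at the start, and the blue ticks of NRXN3 crowd toward its 3′ end.

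Stretches without a peak of either library were longest, after CNTNAP4, in NRXN3. It had 199 kb without a peak (78822469 to 79020990), and in air alone the stretch reached 366 kb and in smoke alone 468 kb. The longest in CNTN4 was 157 kb, in CNTNAP5 157 kb, in CNTNAP2 125 kb, in CNTN5 116 kb and in CNTN3 113 kb. CNTN6 had the shortest, 57.3 kb, which is 18.4% of its length. In CNTNAP2 the 125 kb made up 5.42% of the gene.

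Strength set the members apart little from the lists. The median fold of their smoke peaks was 3.76, equal to that of the whole list, and of their air peaks 3.65 against 3.93. A q of 0.05 or lower was reached by 42.4% of member smoke peaks (34.3 to 51.0), against 44.4% in the list. In air it was reached by 53.6% (45.7 to 61.4), against 60.4%. CNTN3 had few peaks but strong ones in smoke: its 3 had folds of 4.30, 5.4 and 5.91. CNTNAP2 had 3 smoke peaks tied at a −log10 q of 3.22, at 601, 965 and 2274 kb from the start, and 4 air peaks tied at 2.49. The strongest NLGN1 peak was in smoke, 69.1 kb into the gene and 708 bp wide (fold 5.37).

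The remaining neurexin, neuroligin, contactin and CNTNAP genes carried few peaks, apart from CNTN1. Their median length was 170 kb, against 898 kb for the members. Because the members were chosen with earlier results of these data known, the contrast with them is only a description. Of 10 such genes, 3 carried smoke and air peaks, 1 carried smoke peaks only, and 6 carried none. Of the 5 over 200 kb, 3 carried both, against 80.3% of all protein-coding genes of that length. CNTN1, a contactin of myelinated axons (chromosome 12), had 14 smoke and 9 air peaks in 380 kb, 36.8 and 23.7 per Mb, both above every member. CNTNAP3B had 1 of each and NLGN4X 1 in smoke. NRXN2, NLGN2, NLGN3, CNTN2, CNTNAP1 and CNTNAP3 had none, and the first 5 of these are 117 kb or shorter.

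Among 34 partner genes of these proteins, 13 carried both kinds of peak, 5 smoke peaks only, 4 air peaks only and 12 none. Read by gene length, of the 13 over 200 kb 11 carried both, against 80.3% of all protein-coding genes of that length, and of the 12 between 50 and 200 kb 2 did, against 30.1%. Of the 9 that are shorter 0 did, against 2.08%. The 13 partners over 200 kb had a median of 5.21 smoke and 6.52 air peaks per Mb, against 14.6 and 14.2 for the members. This too is only a description, since the members were chosen with earlier results of these data known. MDGA2, whose product masks neuroligins, had 11 smoke and 21 air peaks, and NRCAM, an adhesion molecule of the nodes of axons, 3 and 7. PTPRG, a phosphatase that binds several contactins, had 8 and 7, and the related PTPRZ1 had 5 and 1. The latrophilin gene ADGRL2 had 8 of each. The partner genes given by name here were chosen after their values were seen.

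CNTN6 and CNTN4 are neighbours on chromosome 3, 695 kb apart, so the 1 Mb after CNTN6 reaches into CNTN4. That stretch held 8 smoke and 18 air peaks, against 28.9 and 16.1 per Mb inside CNTN6. After CNTN4 the next 1 Mb held 5 smoke and 18 air peaks. Around CNTN5 the 1 Mb before the start held 23 smoke and 14 air peaks and the 1 Mb after the end 11 and 16. NLGN1 had 15 and 20 before its start and 19 and 13 after its end. Which library had more peaks thus differed between these flanks, as it did between the genes.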

How the data were processed

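Peak lists of 1 smoke and 1 air library were used as deposited, in the 10-column narrowPeak layout. The submitters' processing notes name the aligner Bowtie2, the peak callers MACS and MACS2, and the builds hg38 and mm10, without versions or settings. Coordinates were used as hg38, the human build named. The authors' deposited values per peak are a score, which is 10 times the −log10 p cut to a whole number, a fold over background, a −log10 p, a −log10 q and a summit. These values served to describe, order or threshold the peaks of 1 list at a time. Peak names are numbered up to 134206 and 230215, far above the rows listed, so the deposited lists are a selection; they are called conservative overlap sets, and which calls were overlapped is not stated. A control code is shared by the 2 lists and has no explanation in the labels.

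Gene spans and symbols came from the RefSeq table of GRCh38.p14, chromosomes 1 to 22 and X, and strands and start sequences from the RefSeq promoter table; all 9 genes matched both. Chromosome Y has no listed peak and was left out, NLGN4Y with it. A peak was counted where it overlapped a span by at least 1 bp and placed by its summit. The 9 genes and the lists were chosen with earlier results of these data known. The rule for named items was all 9 genes, their strongest peak per library by −log10 q, every overlapping pair, every peak within 1 kb of a gene end and the longest stretch without peaks; others are named as chosen after their values were seen. The internal starts, the flanks of 1 Mb, the length classes and the rank of the 3′ part were added after seeing the data. Single values of some family and partner genes are not reported here. Tested on simulated data for smoke against air, the search for pairs recovered 60 of 60 planted overlaps between peaks. In a separate check, peak counts over 1066 gene spans equalled a direct count. Python 3.11.15, pandas 2.3.3 and scipy 1.17.1 were used.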

Additional observations from a re-analysis of the deposited data

How the results depend on the processing

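Stricter thresholds lowered the counts over the 9 genes. From 132 smoke and 151 air peaks they went to 56 and 81 for peaks of −log10 q 1.3 or more, to 24 and 44 at 2, to 48 and 71 at a fold of at least 4 and to 11 and 11 at a fold of at least 5. The smoke share went from 46.6% to 40.9%, 35.3%, 40.3% and 50% at these in turn, where the whole lists gave 39.5%, 38%, 40.6% and 33.9%. Placing peaks by summit, adding 10 kb at each end and equal list sizes kept these counts within 1.5 times and the smoke share inside its interval. Members at least 1.5-fold higher in smoke went from 1 to 2 at a −log10 q of at least 1.3, with equal list sizes and with counts scaled to the lists, and to 4 at a fold of at least 5. They were not the same genes each time. At 1.3 they were NLGN1 and CNTN3, without CNTN6. With equal list sizes they were CNTN6 and NLGN1, and with scaled counts CNTN6 and CNTN5. Members at least 1.5-fold higher in air went from 1 to 3 at 1.3, 5 at 2, 4 at a fold of at least 4 and 2 at a fold of at least 5. Over protein-coding genes above 200 kb with a peak, the share higher in air went likewise from 39.5% to 55.7%, 56.5%, 54.2% and 60.7%, and that higher in smoke from 27.1% to 22.1%, 24.3%, 24.1% and 26.6%. Overlapping pairs numbered 4, and 1 if the overlap had to cover at least 0.5 of each peak, 9 within 1 kb, 29 within 5 kb and 62 within 10 kb. With peaks of −log10 q 1.3 or more there was 1, and of 2 or more 0. The 3′ part of the members held 0.985 times the even share in smoke. Restricted to −log10 q of 1.3 or more it held 1.52 times, and to 2 or more 1.04 times. In air it held 1.42 times, 1.17 with 3 parts, 1.19 with 10 parts, 1.48 for peaks of −log10 q 1.3 or more and 1.48 for 2 or more. For NRXN3 in air it held 2.34 times the even share, 1.78 with 3 parts, 2.19 with 10 parts, 2.65 for peaks of −log10 q 1.3 or more and 2.27 for 2 or more. The thresholds for single genes, pairs and positions were chosen after seeing the data. NRXN3 and CNTN6, past 1.5-fold in the full lists, did not turn, though CNTN6 came to 2 of each at −log10 q 2 or more. Others did: CNTNAP5 (2 smoke, 5 air) at −log10 q 1.3 and at fold 4, NLGN1 (1, 2) at −log10 q 2, CNTN5 (3, 5) at −log10 q 2, (7, 8) at fold 4 and (0, 3) at fold 5, CNTNAP2 (5, 4) and CNTN4 (2, 1) at fold 5. The fewer peaks at stricter thresholds follow from their construction; other causes were not tested. No paired analysis was possible because each group is 1 library, and none could be left out. Depth is unknown, so the absence of a listed peak does not show an absence of acetylation.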
